A study of Mus musculus with 6 samples.

Results

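The NRF2 pathway and glutathione genes described here are 10 genes of 40205 in the count table, chosen by name: *Nfe2l2*, *Keap1*, *Slc7a11*, *Gclc*, *Gclm*, *Gsr*, *Txnrd1*, *Srxn1*, *Gpx4* and *Hmox1*. Each had 1 row in the table, and all 10 passed the filter on low counts (0.1 CPM, counts scaled to library size, or more in 3 or more libraries). RNA was sequenced from cells of the 4T-1 line, a mouse mammary carcinoma used as a model of triple-negative breast cancer. In the Y641-F group (3 libraries) the cells were stably transduced with EZH2 carrying Y641-F, a change that makes this H3K27 methyltransferase hyperactive. In the Control group (3 libraries) they were transduced with the MSCV retroviral vector. For the drugs that selected the transduced cells, the study's methods give hygromycin for Y641-F and puromycin for Control cells, although the same passage also names puromycin for all lines. An effect of the drug therefore cannot be told apart from one of EZH2 Y641-F. The study calls the libraries of a group biological replicates, and whether these came from separate transductions is not stated, so p-values measure the spread between these replicates. In such bulk RNA, fewer cells that express a gene and less RNA per cell cannot be told apart.

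NRF2, the product of *Nfe2l2*, is a transcription factor that is mainly controlled through its protein. KEAP1 binds NRF2 and hands it to a ubiquitin ligase for breakdown, and oxidants or electrophiles that modify KEAP1 cysteines let NRF2 build up, enter the nucleus and, with a small MAF partner, bind antioxidant response elements. Its targets make glutathione, keep glutathione and thioredoxin reduced, break down heme and detoxify electrophiles, and tumour cells often use them against oxidative stress. An mRNA level of *Nfe2l2* is therefore no measure of NRF2 activity.

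The antioxidant response element has a core written TGACNNNGC, and it was searched on both strands of RefSeq promoter windows (GRCm38.p6, 250 bases before to 50 bases after a start site). Windows were found for 7 of the 10 genes, 12 windows in all, and *Hmox1*, *Gclc* and *Gsr* had none. The core was in 4 of these 12 windows, each in a different gene, against 12.4% of all 32851 windows. The 4 matches are shown because they stand in genes that went different ways in the comparison below, with the core in capitals and 10 bases on either side, each on the strand that reads TGAC.
*Gclm*, chr3:122245413-122245441, minus strand: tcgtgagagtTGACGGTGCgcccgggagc
*Txnrd1*, chr10:82859104-82859132, minus strand: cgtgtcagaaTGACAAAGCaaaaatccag
*Nfe2l2*, chr2:75704885-75704913, minus strand: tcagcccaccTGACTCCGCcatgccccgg
*Srxn1*, chr2:152105542-152105570, minus strand: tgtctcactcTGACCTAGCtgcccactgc
The core lay 134 to 126 bases before the start in *Gclm*, 92 to 84 bases before 1 of 3 annotated starts in *Txnrd1*, 240 to 232 bases before the start in *Nfe2l2*, and at transcribed bases 29 to 37 in *Srxn1*. Of these genes, *Gclm* and *Txnrd1* were higher in Y641-F cells, *Srxn1* was lower and *Nfe2l2* was not called. None of the 4 matches overlapped the AP-1 motif TGANTCA, found in 7.81% of all windows on either strand, or the CRE motif TGACGTCA, found in 1.79%. Among the 12 windows, only that of *Srxn1* held TGANTCA, at 2 places, and none held TGACGTCA. A match is not a bound site, and elements farther from the start were not searched.

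Libraries held 32509268 to 36429035 counts, of which the 10 genes took 0.114% to 0.122% in the Y641-F libraries and 0.107% to 0.111% in the Control libraries. Y641-F replicate 2 gave the lowest Y641-F value for 7 of the 10 genes and the highest for none of them. It also differed most from the other Y641-F libraries, with chi-square values of 28.3 and 29.7 for each degree of freedom, against 14.5 between replicates 1 and 3 of Y641-F. Control replicate 1 gave the lowest Control value for 8 of the 10. Of 5 epithelial markers, 5 were kept by the filter, with summed levels of 2553 to 2971 CPM in the Y641-F libraries and 2712 to 2799 CPM in the Control libraries, although *Krt19* among them was called lower (log2 fold change -1.13). All 4 leukocyte markers were kept, at summed levels of 5.73 to 6.93 CPM in the Y641-F libraries and 12.0 to 15.2 CPM in the Control libraries. The 3 of 4 fibroblast markers kept summed to 21.6 to 36.4 CPM in the Y641-F libraries and 35.8 to 48.3 CPM in the Control libraries, mostly from *Pdgfra*, with *Col1a1* called lower (log2 fold change -2.08), and the 2 of 3 endothelial markers kept to at most 1.68 CPM. The summed leukocyte markers were thus lower in each Y641-F library, with *Cd68* the most abundant of them, and their part in the results was not tested.

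In Y641-F cells 3 of the 10 genes were higher and 2 were lower than in Control cells, and 5 did not pass the test. Those that rose were *Gclc* and *Gclm*, the 2 subunits of the enzyme that limits glutathione synthesis, and *Txnrd1*, the cytosolic thioredoxin reductase. Those that fell were *Keap1*, the NRF2 inhibitor, and *Srxn1*, which repairs overoxidised peroxiredoxins. All of these changes were small: the largest was a log2 fold change of 0.39, and the median absolute log2 fold change was 0.239 over the 10 genes, against 0.375 over all genes tested. With sign, the medians were 0.138 over the 10 genes and -0.013 over all genes. Calls are from the quasi-likelihood test of edgeR, at a p under 0.05 after adjustment over 21043 genes by the Benjamini-Hochberg method. It called 31.6% of all genes, with 15.6% higher and 16% lower. Among the 9894 genes counted as often on average as *Slc7a11*, the gene of the 10 with the fewest counts, or more often, it called 47.5%, so 5 of 10 is a share near the background. Before adjustment 6 of the 10 had a p under 0.05 in the edgeR test, against 40.7% of all genes. This share was not computed for the genes counted as often as *Slc7a11* or more often. A call with an absolute log2 fold change of 1 or more was made for 7.18% of all genes, and the largest value any of the 10 reached under an alternative was 0.4641, for *Gclm* without Y641-F replicate 1. Values of the groups did not overlap for 6 of the 10 genes, against 44.5% of all genes and 59.8% of the genes counted as often.

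**Figure D1:**
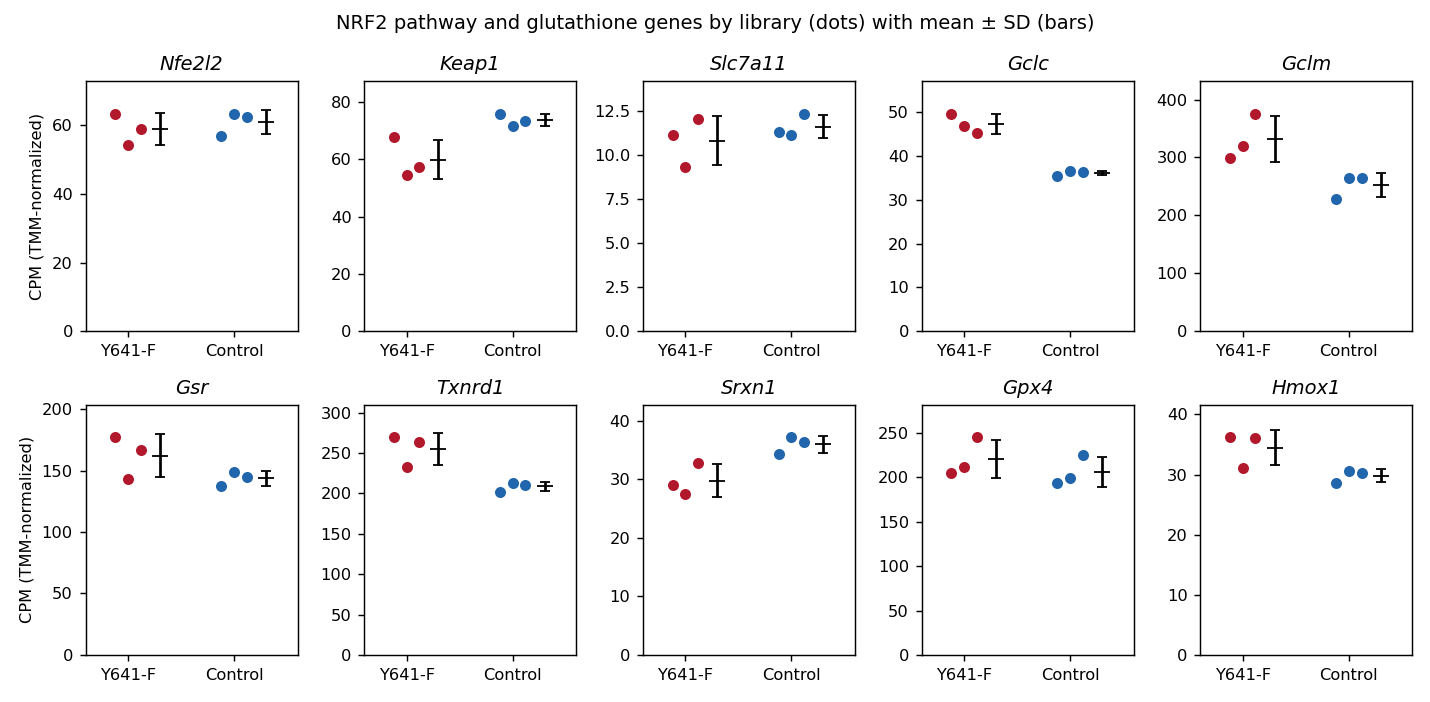
TMM-normalized CPM (vertical axes, from 0) of each gene in the 3 Y641-F and 3 Control libraries (dots), with the mean ± SD of each group (bars). The Y641-F dots of *Gclc*, *Gclm*, *Txnrd1* and *Hmox1* lie above all Control dots, those of *Keap1* and *Srxn1* lie below, and those of the other genes overlap.

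**Figure D2:**
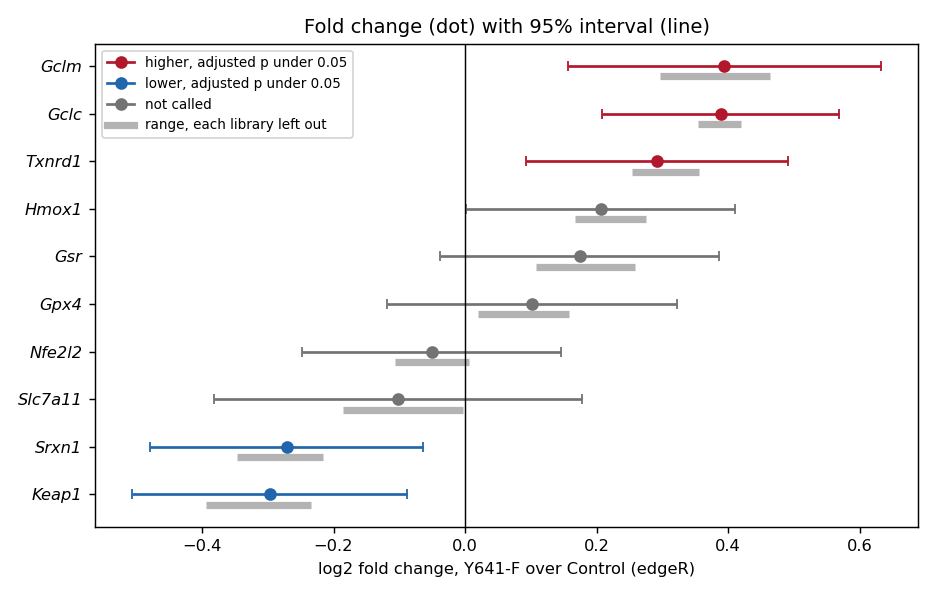
Log2 fold change of Y641-F over Control (dots) with its 95% interval (lines), and the range when each library was left out in turn (grey bars). Values run from -0.30 for *Keap1* to 0.39 for *Gclm*.

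Of the regulators, *Nfe2l2* itself showed no call. *Nfe2l2* had 63.3, 54.1 and 59.0 CPM in the Y641-F libraries, against 56.9, 63.3 and 62.5 CPM in the Control libraries. The groups overlapped, with the highest value of each at 63.3 CPM. The log2 fold change of *Nfe2l2* was -0.05 (standard error 0.0901, edgeR adjusted p = 0.719), with a 95% interval of the fold from 0.842 to 1.11. Without Y641-F replicate 2 its sign turned, to 0.0059.

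*Keap1* encodes the adaptor that brings NRF2 to the CUL3 ubiquitin ligase. *Keap1* had 67.8, 54.6 and 57.4 CPM in the Y641-F libraries, against 76.0, 71.7 and 73.3 CPM in the Control libraries. All Y641-F values were below all Control values, and Y641-F replicate 1 came nearest to them. The fold of *Keap1* was 0.814 (95% interval 0.704 to 0.940), a log2 fold change of -0.30 (standard error 0.0956, edgeR adjusted p = 0.0326). The edgeR call was lost without Y641-F replicate 2 (adjusted p = 0.0529), Y641-F replicate 3 (0.0974), Control replicate 1 (0.0746), Control replicate 2 (0.0778) or Control replicate 3 (0.0577), and over all 13 alternatives the adjusted p ran from 0.0107 to 0.0974. Exons of *Keap1* share 849 and 620 bases (14.9% and 10.9% of the exon length) with 2 lncRNA genes on the other strand in GENCODE vM39, and the strand setting of the counting is not given in the sources used here.

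The number of *Nfe2l2* reads per *Keap1* read, which needs no scaling between libraries, was 0.934, 0.991 and 1.03 in the Y641-F libraries, against 0.749, 0.883 and 0.852 in the Control libraries. The ratio was thus higher in each Y641-F library than in any Control library, by a log2 difference of 0.25. An exact two-sided permutation test gave p = 0.1, the smallest that 3 against 3 libraries allow. It is 1 of 5 ratios of members, chosen after the counts were seen, and the p adjusted over the 5 was 0.125.

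Of 13 other NRF2 regulators tested, 3 were called higher, 3 were called lower and 7 were not called, with a median log2 fold change of 0.024. Across this and 8 further lists of related genes, the share called ran from 25% (selenoprotein synthesis) to 62.5% (other NRF2 targets). The same test called 31.6% of all genes and 47.5% of those counted as often as *Slc7a11* or more often. Whether any list differs from these shares was not tested. The small MAF genes *Mafk* and *Maff* rose (log2 fold changes 0.47 and 0.44), as did the ligase subunit *Rbx1* (0.49). *Mafg*, the small MAF gene of the list with the most counts, was not called (0.064, edgeR adjusted p = 0.657). *Bach1*, a heme-sensing repressor of antioxidant response elements, fell (-0.51), as did *Gsk3b* (-0.47), a kinase that marks NRF2 for breakdown apart from KEAP1, and *Dpp3* (-0.24, edgeR adjusted p = 0.0491), whose product binds KEAP1. The *Dpp3* call was lost with DESeq2 size factors (0.0576), with no filter (0.0594), with the replicate block (0.0699), and without Y641-F replicate 2, Y641-F replicate 3 or any single Control replicate (0.0665 to 0.168), and over the 13 alternatives the adjusted p ran from 0.0184 to 0.168. *Bach1* had 720, 629 and 793 counts in the Y641-F libraries, against 1089, 1149 and 1028 counts in the Control libraries, with no overlap (edgeR adjusted p = 0.00211).

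Glutathione synthesis needs cysteine, much of which enters cells as cystine through the transporter xCT, encoded by *Slc7a11*. *Slc7a11* had 11.1, 9.28 and 12.0 CPM in the Y641-F libraries, against 11.3, 11.1 and 12.3 CPM in the Control libraries. The groups overlapped, and Y641-F replicate 2 was lowest. The log2 fold change of *Slc7a11* was -0.10 (standard error 0.128, edgeR adjusted p = 0.599), with a fold between 0.767 and 1.13 by the 95% interval. With 304 to 411 counts per library it was the least counted of the 10 genes and had the widest interval.

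Glutamate-cysteine ligase then joins glutamate to cysteine, and *Gclc* encodes its catalytic subunit. *Gclc* had 49.6, 46.9 and 45.3 CPM in the Y641-F libraries, against 35.5, 36.4 and 36.3 CPM in the Control libraries. The groups were well apart, with the lowest Y641-F value above the highest Control value and Control libraries that differed little (SD 0.515 CPM). The fold of *Gclc* was 1.31 (95% interval 1.16 to 1.48), a log2 fold change of 0.39 (standard error 0.0826, edgeR adjusted p = 0.00352). Its call was kept under all 13 alternatives, with log2 fold changes from 0.35 to 0.42 and adjusted p from 0.000514 to 0.0217.

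*Gclm* encodes the modifier subunit, which raises the efficiency of the catalytic one. *Gclm* had 299, 320 and 376 CPM in the Y641-F libraries, against 228, 264 and 265 CPM in the Control libraries. The groups did not overlap, although the spread inside them was wider than for *Gclc*, with Y641-F replicate 3 high and Control replicate 1 low. The fold of *Gclm* was 1.31 (95% interval 1.11 to 1.55), a log2 fold change of 0.39 (standard error 0.109, edgeR adjusted p = 0.0161). Without Y641-F replicate 3 or Control replicate 1 the edgeR call was lost (adjusted p = 0.0673 and 0.0741), and the adjusted p over the 13 alternatives ran from 0.00122 to 0.0741. Exons of *Gclm* share 869 bases (10.9%) with a lncRNA on the other strand and 492 bases (6.18%) with a processed pseudogene on the same strand.

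Both ligase subunits thus had nearly the same fold. Reads of *Gclm* per read of *Gclc* numbered 6.03, 6.82 and 8.30 in the Y641-F libraries, against 6.42, 7.25 and 7.30 in the Control libraries, a log2 difference of 0.0030 (exact permutation p = 1, two-sided). *Slc7a11* reads per *Gclm* read were 0.0371, 0.0290 and 0.0320 in the Y641-F libraries, against 0.0497, 0.0421 and 0.0465 in the Control libraries, with no overlap. This log2 difference was -0.50 (exact permutation p = 0.1, two-sided, the smallest possible, and 0.125 adjusted over the 5 ratios). The ratio was chosen after the counts were seen, and its difference mostly restates the rise of *Gclm*.

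Of 9 genes of the methionine cycle, transsulfuration and cysteine breakdown, 2 were called higher, 2 lower and 5 neither, with a median log2 fold change of 0.125. The 2 called lower were *Cbs* and *Csad* (log2 fold change -0.40), of which *Csad* acts downstream of cysteine. *Cbs*, which makes cystathionine from homocysteine on the internal route to cysteine, fell to 12, 8 and 15 counts in the Y641-F libraries, against 534, 468 and 405 counts in the Control libraries. Its log2 fold change was -5.21 (standard error 0.214, edgeR adjusted p = 3.80e-08). *Cbs* is among the genes the study chose on these libraries, so this is not independent evidence. *Mat2a*, which makes the methyl donor S-adenosylmethionine, rose to 274 ± 20.1 CPM in Y641-F cells, against 90.8 ± 10.7 CPM in Control cells (SD, n = 3 each). Exons of *Mat2a* share 791 bases (16.9%) with *Ggcx* and 651 bases (13.9%) with *Particl*, both on the other strand. The list of other glutathione enzymes also holds *Slc3a2*, which encodes the partner chain of xCT and was not called. Among its 24 genes tested, 6 were higher, 6 were lower and 12 were not called (median log2 fold change -0.029), and 3 were called higher without Control replicate 1. *Ggct*, which degrades gamma-glutamyl peptides, had the largest rise of this list (log2 fold change 1.57), and the microsomal glutathione transferase *Mgst1* fell (-0.76).

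Oxidised glutathione is returned to its reduced form by glutathione reductase, the product of *Gsr*. *Gsr* had 177, 143 and 167 CPM in the Y641-F libraries, against 138, 149 and 145 CPM in the Control libraries. Y641-F replicate 2 lay inside the Control range and the other 2 lay above it. The log2 fold change of *Gsr* was 0.17 (standard error 0.0975, edgeR adjusted p = 0.207), with a fold from 0.974 to 1.31 by the 95% interval. Without Y641-F replicate 2 it was 0.26 (edgeR adjusted p = 0.0204), and over the 13 alternatives the adjusted p ran from 0.0204 to 0.484.

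*Txnrd1* encodes the selenoenzyme that reduces thioredoxin in the cytosol. *Txnrd1* had 269, 233 and 264 CPM in the Y641-F libraries, against 202, 213 and 211 CPM in the Control libraries. All Y641-F values were above all Control values. The fold of *Txnrd1* was 1.22 (95% interval 1.07 to 1.41), a log2 fold change of 0.29 (standard error 0.0914, edgeR adjusted p = 0.0288). The edgeR call was lost without Y641-F replicate 1 (adjusted p = 0.0889), Y641-F replicate 3 (0.0787), Control replicate 1 (0.0899), Control replicate 2 (0.0945) or Control replicate 3 (0.0639), and over the 13 alternatives the adjusted p ran from 0.00310 to 0.0945.

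*Srxn1* encodes sulfiredoxin, which uses thioredoxin or glutathione to rescue peroxiredoxins whose cysteine has been overoxidised. *Srxn1* had 29.0, 27.5 and 32.9 CPM in the Y641-F libraries, against 34.3, 37.2 and 36.4 CPM in the Control libraries. The groups did not overlap, but Y641-F replicate 3 and Control replicate 1 lay close together. The fold of *Srxn1* was 0.828 (95% interval 0.717 to 0.957), a log2 fold change of -0.27 (standard error 0.0952, edgeR adjusted p = 0.0472). The call was lost with DESeq2 size factors (edgeR adjusted p = 0.0564), the replicate block (edgeR adjusted p = 0.0563), the DESeq2 Wald test (DESeq2 adjusted p = 0.0661) and without Y641-F replicate 1 (edgeR adjusted p = 0.124), Y641-F replicate 2 (0.0811), Control replicate 1 (0.0537), Control replicate 2 (0.163) or Control replicate 3 (0.0964). It was negative in all 13 alternatives, from -0.35 to -0.22, with adjusted p from 0.0233 to 0.163.

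*Srxn1* and *Txnrd1*, both classical NRF2 targets, went opposite ways. For each *Txnrd1* read there were 0.108, 0.118 and 0.124 *Srxn1* reads in the Y641-F libraries, against 0.170, 0.175 and 0.173 in the Control libraries. The gap between the groups was much wider than the spread in either, with means of 0.117 ± 0.0084 in Y641-F cells and 0.172 ± 0.0023 in Control cells (SD, n = 3 each). The log2 difference was -0.56 (exact permutation p = 0.1, two-sided, the smallest possible, and 0.125 adjusted over the 5 ratios). This pair was chosen after the counts were seen, and its difference restates the opposite changes of the 2 genes. The *Srxn1* call was lost under 8 of the 13 alternatives and the *Txnrd1* call under 5. *Txnrd1* reads per *Gsr* read also separated the groups, at 1.52, 1.63 and 1.59 in the Y641-F libraries, against 1.47, 1.43 and 1.46 in the Control libraries (log2 difference 0.12, exact permutation p = 0.1, two-sided, and 0.125 adjusted over the 5 ratios).

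**Figure D3:**
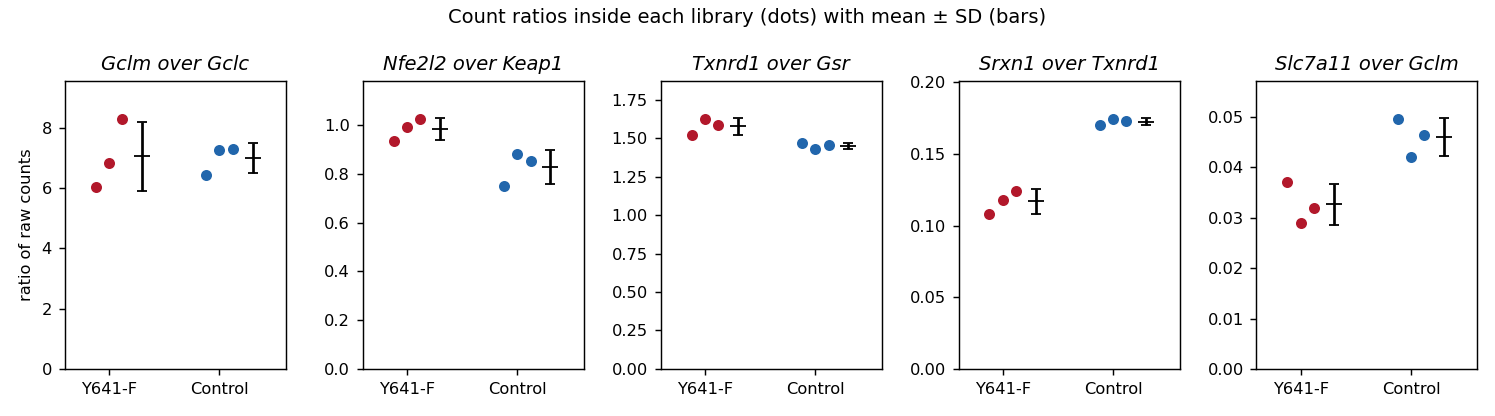
Ratio of the raw counts of 2 genes inside each library (dots) with the mean ± SD of each group (bars), vertical axes from 0. The Y641-F and Control libraries do not overlap for 4 of the 5 ratios, and overlap for *Gclm* over *Gclc*. The pairs were chosen after the counts were seen, and the share of other gene pairs without overlap was not computed. Of single genes counted as often as *Slc7a11* or more often, 59.8% did not overlap.

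The list of other thioredoxin and peroxiredoxin genes also holds *Txnip*, sestrins and methionine sulfoxide reductases. Of its 19 genes, 7 were higher, 4 were lower and 8 were not called, and the median log2 fold change was 0.20. The number called higher was 3 without Y641-F replicate 3, and 4 without Control replicate 1 or Control replicate 2. Mitochondrial thioredoxin, *Txn2*, rose to 103 ± 3.07 CPM in Y641-F cells, against 54.1 ± 2.37 CPM in Control cells (SD, n = 3 each). *Txnip*, which binds and inhibits thioredoxin, fell to 30.2 ± 2.18 CPM in Y641-F cells, against 76.5 ± 0.817 CPM in Control cells (SD, n = 3 each). *Sesn3* and *Msra* of this list also fell (log2 fold changes -1.12 and -1.07), as did *Msrb1* (-0.39). No thioredoxin or peroxiredoxin gene was thus called lower. *Prdx1*, *Prdx3* and *Prdx6* were called higher (0.46, 0.59 and 0.83), and *Prdx2*, *Prdx4* and *Prdx5* were not called. Exons of *Txnip* share 928 bases (29.3%) with a lncRNA on the other strand.

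*Gpx4* encodes the selenoenzyme that uses glutathione to reduce lipid peroxides and holds back ferroptosis. *Gpx4* had 205, 212 and 245 CPM in the Y641-F libraries, against 193, 199 and 225 CPM in the Control libraries. The ranges overlapped, and replicate 3 was highest in both groups. The log2 fold change of *Gpx4* was 0.10 (standard error 0.101, edgeR adjusted p = 0.498), with a fold from 0.921 to 1.25 by the 95% interval. Exons of *Gpx4* share 228 bases (13.2%) with a lncRNA on the other strand.
Of 14 other ferroptosis and iron genes, the test called 6 higher and 2 lower (median log2 fold change 0.13). The 2 that fell were *Slc40a1*, the iron exporter ferroportin (log2 fold change -1.11), and *Aifm2*, the ferroptosis suppressor FSP1 (-0.67), while the iron importer *Slc11a2* and the ferrireductase *Steap3* rose (0.81 and 1.04). The other called genes of the list also rose, among them *Dhodh* (0.63) and *Fth1* (0.50). Of 8 genes that serve selenoprotein synthesis, on which *Gpx4* and *Txnrd1* depend, the test called 2 (median log2 fold change 0.21). *Sephs2*, which makes the selenium donor, rose (log2 fold change 0.52), and so did *Secisbp2* (0.44, edgeR adjusted p = 0.0243), which binds the selenocysteine insertion element. The *Secisbp2* call was lost without Y641-F replicate 1, Y641-F replicate 2 or any single Control replicate, and its adjusted p ran from 0.00568 to 0.0907 over the 13 alternatives. The number of these genes called higher was 1 without Y641-F replicate 1, Control replicate 1 or Control replicate 2.

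*Hmox1* encodes the inducible heme oxygenase, which breaks heme down to biliverdin, iron and carbon monoxide. *Hmox1* had 36.2, 31.1 and 36.0 CPM in the Y641-F libraries, against 28.6, 30.7 and 30.3 CPM in the Control libraries. All Y641-F values were above all Control values, although Y641-F replicate 2 exceeded the highest Control library only slightly. The log2 fold change of *Hmox1* was 0.21 (standard error 0.0937, edgeR adjusted p = 0.119), with a 95% interval of the log2 fold change from 0.0021 to 0.41. Without Y641-F replicate 2 it was 0.28 (edgeR adjusted p = 0.0204), and the adjusted p over the 13 alternatives ran from 0.0204 to 0.288.
Of 14 other genes of heme synthesis, transport and breakdown, the test called 3 higher and 4 lower (median log2 fold change -0.105). The heme exporter *Flvcr1* rose (log2 fold change 1.22), as did the heme synthesis genes *Alad* and *Uros* (0.35 and 0.44). *Alas1*, the first enzyme of heme synthesis, fell (-0.49), as did *Fech* (-0.38), *Abcb6* (-0.93) and *Blvrb* (-0.62), which encodes biliverdin reductase B. *Blvra*, which encodes biliverdin reductase A, was not called (-0.20, edgeR adjusted p = 0.195). Exons of *Abcb6* share 2947 bases (54.3%) with a lncRNA on the same strand, so reads of the pair may not be told apart. Of 9 genes that make or remove superoxide and hydrogen peroxide, the test called 3 higher: *Nox1* and *Cyba*, which encode NADPH oxidase subunits, and the mitochondrial superoxide dismutase *Sod2* (log2 fold changes 0.57, 0.39 and 0.46), and the list's median was 0.13. Catalase, *Cat*, which breaks down hydrogen peroxide, had a log2 fold change of -0.28 (edgeR adjusted p = 0.0516) and was called lower with upper-quartile factors, no filter, the 1 CPM filter, limma-voom and without Y641-F replicate 3 (adjusted p over the 13 alternatives 0.0216 to 0.185). With the 1 CPM filter, which leaves fewer genes, the list's median was 0.34.

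Of 24 other NRF2 target genes, 6 were higher, 9 were lower and 9 were not called, with a median log2 fold change of -0.12, against -0.013 over all genes tested. The test thus called 62.5% of this list, against 31.6% of all genes and 47.5% of those counted as often as *Slc7a11* or more often. Without Y641-F replicate 3 the number called higher was 3. *Nqo1*, a quinone reductase widely used as a readout of NRF2, had 305, 302 and 364 counts in the Y641-F libraries, against 277, 256 and 213 counts in the Control libraries. It rose, with a log2 change of 0.48 (standard error 0.132, edgeR adjusted p = 0.0157), and its edgeR call was lost without Y641-F replicate 3, Control replicate 2 or Control replicate 3 (adjusted p = 0.0575, 0.0590 and 0.0749, with 0.00786 to 0.0749 over the 13 alternatives). The largest falls of that list were *Ephx1*, a microsomal epoxide hydrolase, at 87, 87 and 90 counts in the Y641-F libraries, against 474, 407 and 399 counts in the Control libraries, and the glutathione transferase *Gstm1*, at 46, 43 and 52 counts in the Y641-F libraries, against 235, 181 and 193 counts in the Control libraries. Their log2 fold changes were -2.18 and -2.01 (edgeR adjusted p = 8.00e-07 and 1.51e-05). *Gstm1* belongs to a family of similar genes, so reads could be shared with its paralogs.

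**Figure D4:**
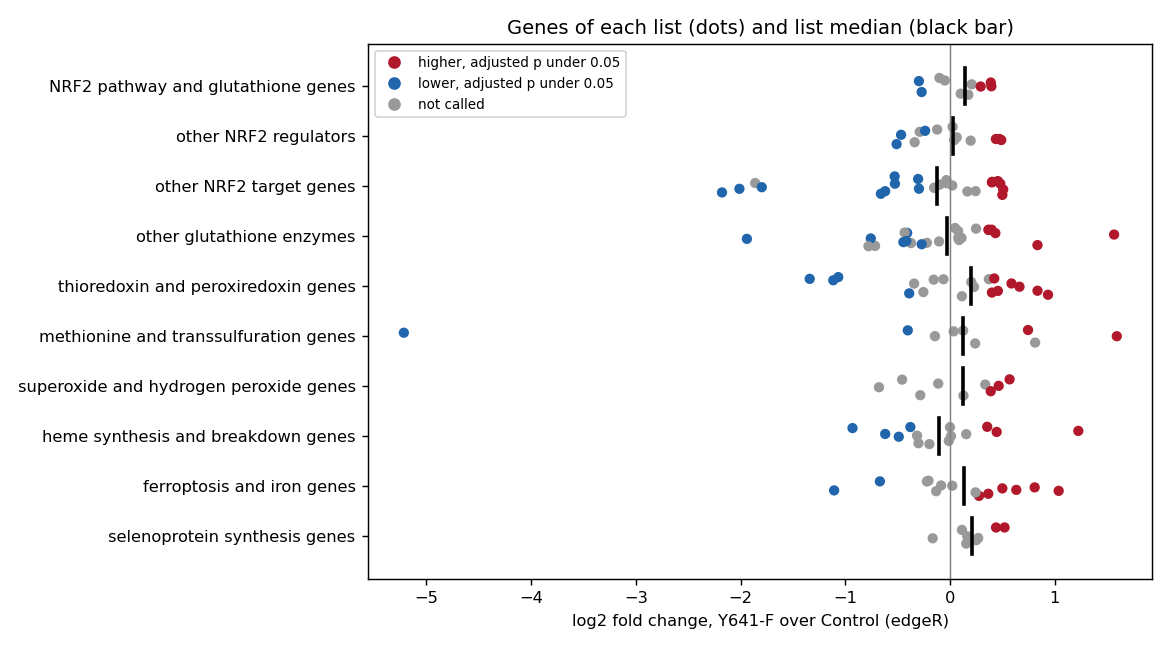
Log2 fold change of Y641-F over Control for each gene tested in the 10 NRF2 pathway and glutathione genes and in 9 related lists (dots), with the median of each list (black bars). Red dots were called higher and blue dots lower. The 10 genes lie between -0.30 and 0.39, and *Cbs*, at -5.21, is the lowest point.

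Per kb of merged exon length, *Gpx4* had the highest level of the 10 genes and *Slc7a11* the lowest. *Gpx4* stood at 128 ± 12.4 CPM per kb in Y641-F cells and 119 ± 9.67 CPM per kb in Control cells, and *Slc7a11* at 0.695 ± 0.0894 CPM per kb in Y641-F cells and 0.747 ± 0.0415 CPM per kb in Control cells (SD, n = 3 each). In Control cells the order between them was *Gclm*, *Txnrd1*, *Gsr*, *Hmox1*, *Keap1*, *Nfe2l2*, *Gclc* and *Srxn1*, and neighbours did not overlap except *Gclm* and *Txnrd1*. In Y641-F cells *Keap1* and *Nfe2l2* changed places, at 10.5 ± 1.22 and 10.8 ± 0.848 CPM per kb (SD, n = 3 each), with values that overlapped. Lengths are from GENCODE vM39 and may differ from the annotation behind the counts. With the length of the canonical transcript instead, *Txnrd1* and *Gsr* came before *Gclm* in both groups, at 76.8, 60.7 and 52.2 CPM per kb in Y641-F cells and 62.7, 53.8 and 39.7 CPM per kb in Control cells, and *Keap1* came before *Hmox1* in Control cells. *Keap1* then stood above *Nfe2l2* in both groups, at 18.7 and 16.4 CPM per kb in Y641-F cells and 23.0 and 16.9 CPM per kb in Control cells, so their change of places held only with the merged exon length.

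**Figure D5:**
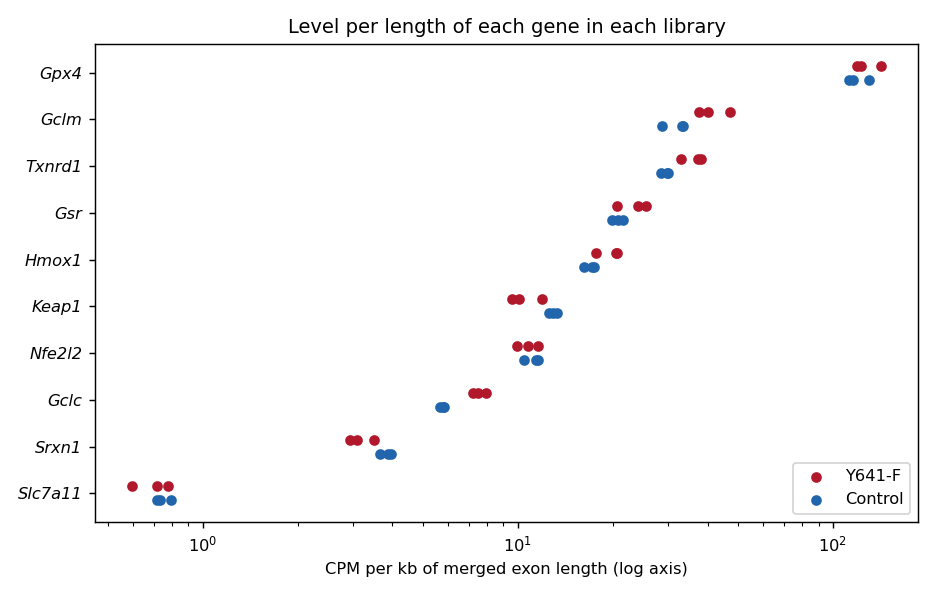
Level of each gene in CPM per kb of merged exon length (horizontal log axis) in the 3 Y641-F libraries (red) and the 3 Control libraries (blue). Levels run from under 1 CPM per kb for *Slc7a11* to over 100 CPM per kb for *Gpx4*.

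The genes lie on chromosomes 2, 3, 8, 9 and 10 of GRCm39. *Nfe2l2* spans 75504739 to 75534985 on the minus strand and *Srxn1* 151947436 to 151957687 on the plus strand of chromosome 2. On chromosome 3, *Slc7a11* spans 49846975 to 50398070 (minus strand) and *Gclm* 122039126 to 122065061 (plus strand). *Gsr*, at 34142551 to 34188192, and *Hmox1*, at 75820241 to 75827217, are on the plus strand of chromosome 8. *Keap1*, at 21141026 to 21150679 on the minus strand, and *Gclc*, at 77661797 to 77701770 on the plus strand, are on chromosome 9. *Gpx4*, at 79883000 to 79892273, and *Txnrd1*, at 82669785 to 82733546, are on the plus strand of chromosome 10. Exons of 5 of the 10 genes, *Nfe2l2*, *Keap1*, *Gclm*, *Srxn1* and *Gpx4*, overlap exons on the other strand, as do those of 19 of the 33 other genes that the rule names. Among these 19, the shared part was 36.4% of the exon length for *Sephs2*, 34.3% for *Csad*, 26.2% for *Alas1* and 16.1% for *Mafk*.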

How the data were processed

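RNA of 6 libraries was extracted with TRIzol, prepared with a NEBNext Ultra II kit and sequenced on an Illumina NovaSeq. The authors deposited raw read counts per gene, which they had neither normalized nor filtered. The submitters' processing notes name STAR 2, GRCm39, featureCounts 2.0.1, fastp 0.20.1, bcl2fastq 2.19.0.316, MultiQC 1.9 and FastQC 0.11.9. Neither the annotation release nor the strand setting of the counting is given in the sources used here.

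From these counts, genes that reached 0.1 CPM in 3 libraries or more were kept (21043 of 40205). TMM scaled the libraries, as in the study's methods, and edgeR 4.0.16 (R 4.3.3) fitted its quasi-likelihood model with group as the only term. The members and lists were chosen with earlier results of these data known. All 10 members are described. *Txn1*, *Prdx1*, *Blvrb*, *Fth1* and *Ftl1* stand in 2 lists each. Of each other list up to 4 genes are named by size of change, from those called with a mean of 100 counts or more, and *Nqo1* is always named. Calls of 5 genes or fewer may be named in full. *Cat*, *Dhodh*, *Fth1*, *Blvra*, *Mafg*, *Slc3a2*, *Prdx1*, *Prdx2*, *Prdx3*, *Prdx4*, *Prdx5*, *Prdx6*, *Cd68*, *Krt19*, *Col1a1* and *Pdgfra* were named after their values were seen. The 13 alternatives changed the scaling (DESeq2 size factors or upper-quartile factors), the filter (none, or 1 CPM), the test (limma 3.58.1 voom, or the DESeq2 1.42.0 Wald test with its own size factors, which changes the scaling too), added a replicate block, or left out 1 library. The 5 count ratios, tested by exact permutation of the 6 libraries, and the canonical transcript lengths were added after seeing the data. Positions and lengths are from GENCODE vM39 on GRCm39, and promoter windows are from RefSeq on GRCm38.p6. The result for 1 listed marker gene is not reported here.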

Additional observations from a re-analysis of the deposited data

How the results depend on the processing

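The directions of 9 of the 10 genes held under all 13 alternatives. That of *Nfe2l2*, which was not called, turned without Y641-F replicate 2, and its log2 fold change ran from -0.1064 to 0.0059 when 1 library was left out. The number of the 10 genes called higher was 3 under each alternative that used all 6 libraries, and ran from 1 to 5 with 1 library left out. The number called lower, 2 in the comparison as reported, was 1 with DESeq2 size factors, 1 with the DESeq2 Wald test and 1 with the replicate block, and ran from 0 to 1 with 1 library left out. Leaving out a library leaves 2 against 3, so fewer samples enter each test. In their deviations from the group means, libraries with the same number correlated at -0.0705, -0.00402 and 0.102. Libraries with different numbers correlated at -0.0988 to 0.103. These values show no pairing by number, but so few libraries cannot exclude one. With the replicate block *Srxn1* lost its call (edgeR adjusted p = 0.0563), and 3149 genes were higher and 3244 lower, against 3277 and 3374 without it. *Cat* was called lower under 5 of the alternatives. With upper-quartile factors 4 ferroptosis and iron genes were lower in place of 2. *Csad* lost its call without Control replicate 2 (edgeR adjusted p = 0.0574). *Slc7a11*, with the fewest counts of the 10 genes, had a 95% interval of its log2 fold change from -0.38 to 0.18, so changes of that size cannot be told from none.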
